A study of Mus musculus with 12 samples.

Results

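The genes described here encode the helix-loop-helix proteins of the E protein and Id families that B cells use, the inhibitors Id1, Id2 and Id3 and the E proteins Tcf3, Tcf4 and Tcf12. They were found in the deposited count table by their Entrez identifiers, which are 15901, 15902 and 15903 for the Id genes and 21423, 21413 and 21406 for Tcf3, Tcf4 and Tcf12. They are 6 of the 27179 genes in the table and 6 of the 12750 genes tested, so that no member was lost to the filter on low counts. Id1 passed that filter only through its libraries at 3 h and 10 h of culture, where it was highest. The rule that chose them uses gene identity and no measured value, although it was set with earlier results of these data known.

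E proteins are basic helix-loop-helix transcription factors that bind E-box DNA as dimers. Id proteins have the dimerisation domain but no basic region, so a dimer of an Id protein with an E protein does not bind DNA. In the B lineage, E proteins are required for commitment and for the rearrangement of immunoglobulin genes, and the level of Id proteins sets how much E protein is free to act. Gene counts measure RNA and not protein, and they do not separate the splice forms of a gene, such as E12 and E47 of Tcf3.

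RNA-Seq covered 12 libraries from male C57BL/6 mice of 6 to 12 weeks, 2 biological replicates for each of 6 stages. Naive B cells were sorted from spleen on markers that included TCRβ-, B220+, IgM+ and IgDhi. The other stages all came from isolated splenic B cells cultured with 25 µg/ml of lipopolysaccharide (LPS), a bacterial product that activates B cells through Toll-like receptor 4. Activated cells that had not yet divided, traced with the division dye CellTrace Violet, were sorted at 3, 10 and 33 h, and on day 4 CD22-CD138+ plasmablasts and the CD22+CD138- expanded B cells were sorted. The day 4 cultures were started at a lower cell density than the shorter ones, which cannot be told apart from the stage between 33 h and day 4. No stage was cultured without LPS. Between naive cells and 3 h, negative selection, dye labelling, culture and sorting on CD69 therefore cannot be told apart from LPS itself. No stage was a mutant, and the labels give no batches. The cultures after LPS are a model of activation without T cell help, and a library holds a sorted population, in which fewer cells of a type and less RNA per cell cannot be told apart.

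Total counts ran from 23026619 to 60585587 per library with a median of 37839944. Levels are given as RPKM, reads per kilobase of exon scaled to sequencing depth, computed from the deposited counts and gene lengths with TMM-scaled library sizes, so that genes can be compared with each other. All 6 B cell markers were detected at every stage, and the plasmablast markers summed to 10842 and 10673 RPKM in plasmablasts against 141 to 1071 RPKM in the other libraries. Jchain made 8216 and 7779 RPKM of the plasmablast sums. Sdc1, Prdm1, Xbp1 and Jchain were highest in plasmablasts. Irf4 was higher at 3 h (709 and 519 RPKM) than in plasmablasts (242 and 290 RPKM). The naive libraries also carried more RNA of other cell types than the later stages. All 8 myeloid markers were detected in them, with sums of 430 and 180 RPKM in the naive replicates and 5.61 to 51.0 RPKM later. Lyz2, S100a8 and S100a9 made most of the naive sums and were near or at 0 later, whereas Cd68 and Ly6c2 were higher in plasmablasts (means of 18.4 and 30.7 RPKM against 5.19 and 15.7 RPKM in naive cells) and Itgam in expanded B cells (5.17 against 1.69 RPKM). Erythroid markers, of which 5 of 6 were in the table, summed to 380 and 290 RPKM in naive cells and to 0.257 to 3.20 RPKM later. The 8 T cell markers summed to 31.7 and 34.9 RPKM in naive cells, of which Lck alone made 29.4 and 32.3 RPKM, and to 6.01 to 17.9 RPKM later, and Cd3g was higher in plasmablasts than in naive cells (1.15 against 0.444 RPKM). The 7 markers of NK and innate lymphoid cells summed to 13.8 to 16.7 RPKM in naive cells and to 0.541 to 3.07 RPKM later. These values stand beside every comparison with naive cells below, and their part in those results was not tested.

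Id3 was the dominant Id gene of naive B cells and was nearly lost in plasmablasts. Id3 lies on chr4:136143822-136145392 (mm10). Its level was 131 and 146 RPKM in the 2 naive libraries, 39.9 and 29.7 RPKM at 3 h, 58.7 and 60.2 RPKM at 10 h and 67.5 and 60.5 RPKM at 33 h. It was 39.3 and 40.3 RPKM in expanded B cells and 1.64 and 1.78 RPKM in plasmablasts, which rest on 37 and 48 counts. Both naive libraries lay above all others and both plasmablast libraries below all others, without overlap. Among the tested genes, the Id3 level stood at the 96.4th percentile in naive cells and at the 27.9th in plasmablasts.

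Id3 passed the 1.5-fold test at 2 transitions, directly after activation and at plasmablast differentiation, and fell at both. Between naive cells and 3 h, Id3 fell by 2.00 ± 0.13 on the log2 scale, a 4.00-fold change (edgeR glmTreat against a 1.5-fold change, Benjamini-Hochberg adjusted p = 1.55e-07). In plasmablasts it was lower than in expanded B cells by a log2 fold change of -4.53 ± 0.17, or 23.2-fold (glmTreat adjusted p = 1.89e-09), and it ranked 151st among all genes that fell at this transition. Errors of log2 fold changes are standard errors throughout. The partial recovery from 3 h to 10 h, with a log2 fold change of 0.78 ± 0.13, did not pass the 1.5-fold test (glmTreat adjusted p = 0.0671) and passed the test for a change of any size (quasi-likelihood F-test adjusted p = 0.000140). From 33 h to expanded B cells its mean level was 64.0 and then 39.8 RPKM. This log2 fold change of -0.69 ± 0.12 also passed the F-test (adjusted p = 0.000872) and not glmTreat (adjusted p = 0.405). The levels at 33 h and 10 h were not distinguished by the F-test (adjusted p = 0.500), nor were those in expanded B cells and at 3 h (adjusted p = 0.167).

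Id2, which is best known as the inhibitor that innate lymphoid cells depend on, was low in naive cells and highest 3 h after LPS. Id2 lies on chr12:25093799-25096092, and its level was 3.07 and 2.83 RPKM in naive cells, 29.3 and 35.6 RPKM at 3 h and 12.7 and 12.1 RPKM at 10 h. It was 6.18 and 8.97 RPKM at 33 h, 8.68 and 8.99 RPKM in expanded B cells and 1.73 and 2.14 RPKM in plasmablasts. The 3 h libraries lay above all others and the plasmablast libraries below all others, and only the 33 h and expanded ranges overlapped. Id2 rose by a log2 fold change of 3.46 ± 0.19 (11.0-fold) at the first transition, with a glmTreat adjusted p of 1.24e-08. It then fell by 1.39 ± 0.17 from 3 h to 10 h (adjusted p = 0.000246) and by 2.18 ± 0.20 from expanded B cells to plasmablasts (adjusted p = 9.06e-06). Plasmablasts and naive cells, the lowest pair in the order, differed by the F-test (adjusted p = 0.0236) but not by 1.5-fold (glmTreat adjusted p = 0.367).

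Id1 appeared as a pulse at 3 h. This gene, on chr2:152736251-152737410, is a target of BMP signalling in many cells. Its level was 14.9 and 10.4 RPKM at 3 h, from 243 and 289 counts, and 0.570 and 0.609 RPKM at 10 h, from 25 and 21 counts. All other libraries had between 0.0626 and 0.372 RPKM, which is 2 to 9 counts. The rise from naive cells, with a log2 fold change of 6.21 ± 0.35 (glmTreat adjusted p = 1.17e-08), therefore rests on 4 and 5 counts in the naive libraries, and Id1 ranked 56th among all genes that rose at this transition. Id1 fell by 4.41 ± 0.28 from 3 h to 10 h (adjusted p = 1.29e-07) and by 2.78 ± 0.47 from 10 h to 33 h (adjusted p = 0.00195). It passed the filter on low counts only through the 3 h and 10 h libraries. Its changes at these stages are therefore not independent of that filter. The slightly higher level in plasmablasts than in expanded B cells, at 0.360 ± 0.017 against 0.124 ± 0.058 RPKM (SD, n = 2), did not pass glmTreat (adjusted p = 0.103) and passed the F-test (adjusted p = 0.0301).

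**Figure D1:**
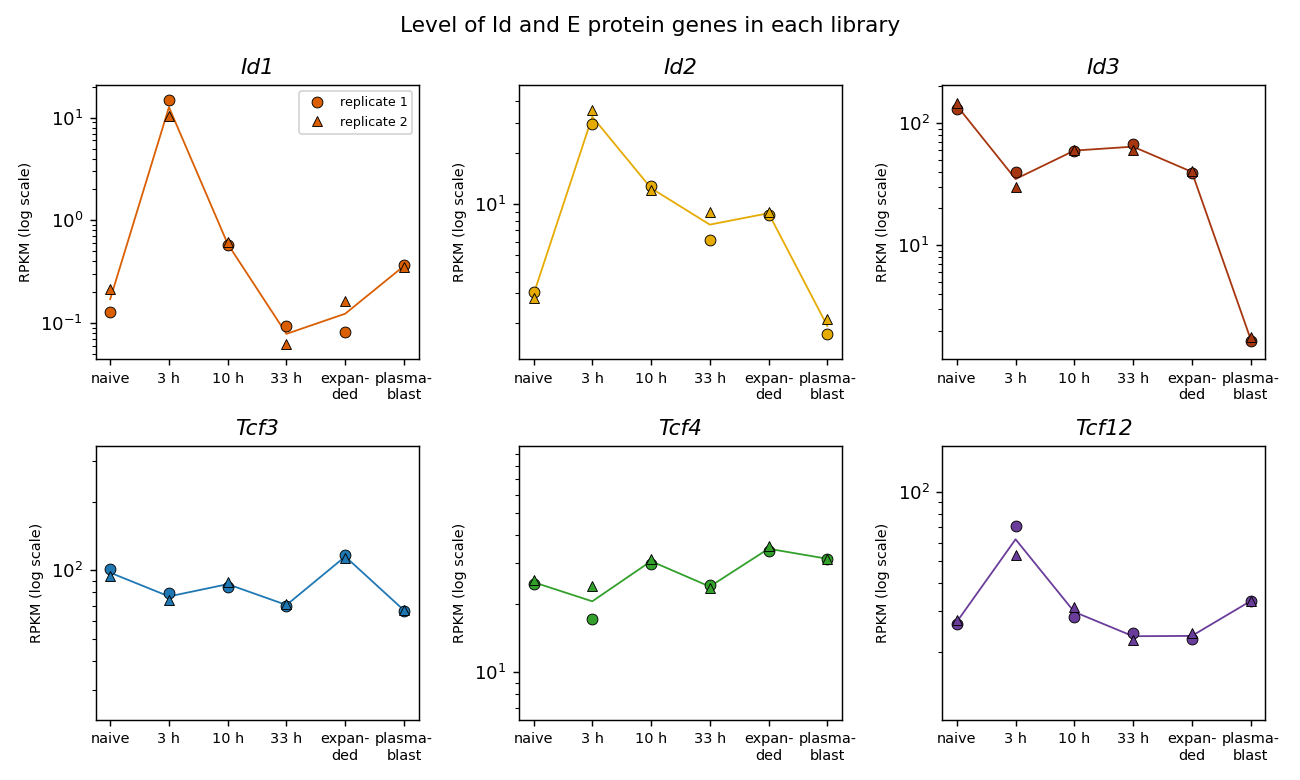
RPKM of each gene (log scale, with a different range in each panel) in both libraries of the 6 stages, with circles for replicate 1, triangles for replicate 2 and a line through the stage means. Id3 runs from 138 RPKM in naive cells to 1.71 RPKM in plasmablasts, Id1, Id2 and Tcf12 peak at 3 h, and Tcf3 and Tcf4 stay within a 1.72-fold and 1.70-fold range of stage means.

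The promoters of Id2 and Id3 are shown because these genes moved in opposite directions within 3 h of activation. The 250 bases before the RefSeq start site (GRCm38.p6, 5′ to 3′ on the strand of the gene) are chr12:25096093-25096342 on the minus strand for Id2 and chr4:136143572-136143821 on the plus strand for Id3. Capitals mark matches to the E-box motif CANNTG, which reads the same pattern on both strands.
Id2: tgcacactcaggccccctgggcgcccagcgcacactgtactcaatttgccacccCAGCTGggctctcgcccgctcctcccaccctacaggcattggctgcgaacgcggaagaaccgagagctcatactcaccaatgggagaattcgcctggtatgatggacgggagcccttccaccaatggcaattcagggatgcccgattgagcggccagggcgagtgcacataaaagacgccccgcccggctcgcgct
Id3: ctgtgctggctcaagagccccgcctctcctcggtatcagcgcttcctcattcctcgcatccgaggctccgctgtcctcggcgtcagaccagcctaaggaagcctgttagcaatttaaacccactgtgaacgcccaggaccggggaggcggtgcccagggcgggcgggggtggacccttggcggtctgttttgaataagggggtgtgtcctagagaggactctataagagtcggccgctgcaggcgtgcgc
Id2 held a single E-box, CAGCTG, at position -196 from the start site, and Id3 held none. Over windows from 250 bases before to 50 bases after the start, CANNTG was found in 72.3% of 32851 RefSeq promoters, CAGCTG in 16.3% and the forms CAGGTG or CACCTG in 20.2%. Tcf3 had 1 CANNTG match (CACTTG, at position -54). The 3 listed Tcf12 promoters had 1, 2 and 1. None of the Id2, Id3, Tcf3 or Tcf12 windows held the Egr motif GCGNGGGCG on either strand, which was found in 5.55% of all promoters. These matches describe letters in a window and were not measured as binding.

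Per length of transcript, Tcf3 was the most abundant E protein gene at every stage, and it varied little. In counts, Tcf12 was above Tcf3 in both 3 h libraries (6453 and 8167 against 5077 and 7989). Tcf4 was above it in both plasmablast libraries (5685 and 6860 against 5581 and 6739). Tcf3 lies on chr10:80409541-80433976. Its level was 101 and 94.0 RPKM in naive cells, 79.8 and 74.0 RPKM at 3 h, 84.8 and 89.1 RPKM at 10 h and 69.7 and 71.3 RPKM at 33 h. It was highest in expanded B cells, at 117 and 113 RPKM, and lowest in plasmablasts, at 66.6 and 67.0 RPKM. These 6 stage means placed Tcf3 between the 89.5th and 94.5th percentile of tested genes. Its only call among the 5 consecutive transitions was a fall by 0.78 ± 0.08 from expanded B cells to plasmablasts, a 1.72-fold change (glmTreat adjusted p = 0.0141). That call was lost when expanded replicate 1, plasmablast replicate 1 or plasmablast replicate 2 was left out, with adjusted p up to 0.0848. Over all 12 libraries left out in turn its log2 fold change ran from -0.81 to -0.75. From naive cells to 3 h the log2 fold change was -0.35 ± 0.08, which passed the F-test (adjusted p = 0.00140) and not glmTreat (adjusted p = 1). The rise from 33 h to expanded B cells, with a log2 fold change of 0.70 ± 0.08, passed the F-test (adjusted p = 2.17e-05) and not glmTreat (adjusted p = 0.153). From naive cells down to plasmablasts, neighbouring stages in the order of Tcf3 levels were not distinguished by the F-test, with adjusted p between 0.0619 and 0.398.

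Tcf12, which encodes HEB, was the only E protein gene to pass the 1.5-fold test between naive cells and 3 h or between 3 h and 10 h. It lies on chr9:71844252-72111893, and its level was 26.5 and 27.5 RPKM in naive cells, 71.1 and 53.0 RPKM at 3 h and 28.4 and 31.3 RPKM at 10 h. It was 24.1 and 22.6 RPKM at 33 h, 22.8 and 24.1 RPKM in expanded B cells and 33.2 and 33.3 RPKM in plasmablasts. Both 3 h libraries lay above all the others, although they were further apart than the replicates of any other stage. Tcf12 rose by a log2 fold change of 1.20 ± 0.12 (2.30-fold) from naive cells to 3 h (glmTreat adjusted p = 7.01e-05) and fell by 1.06 ± 0.12 to 10 h (adjusted p = 0.000925). With libraries scaled by their size alone the second call was lost, at a log2 fold change of -0.72 and an adjusted p of 0.0969. At the last transition Tcf12 had a log2 fold change of 0.51 ± 0.12, which passed the F-test (adjusted p = 0.00243) and not glmTreat (adjusted p = 0.905). The level in expanded B cells was not distinguished from that at 33 h (95% interval of the log2 fold change from -0.25 to 0.26).

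Tcf4, the gene of the E protein that plasmacytoid dendritic cells depend on, passed the 1.5-fold test at no transition. Its level was 24.3 and 25.3 RPKM in naive cells, 17.1 and 23.8 RPKM at 3 h, 29.9 and 31.5 RPKM at 10 h and 24.1 and 23.4 RPKM at 33 h. It was 33.9 and 35.6 RPKM in expanded B cells and 31.3 and 31.5 RPKM in plasmablasts. The 10 h, expanded and plasmablast libraries all lay above those of the other 3 stages. By the F-test, Tcf4 differed between 3 h and 10 h, with a log2 fold change of 0.58 ± 0.12 (adjusted p = 0.000936), between 10 h and 33 h, with -0.37 ± 0.12 (adjusted p = 0.0229), and between 33 h and expanded B cells, with 0.55 ± 0.12 (adjusted p = 0.00291). Expanded B cells, plasmablasts and 10 h cells, the highest stages, were not distinguished from their neighbours in that order (F-test adjusted p = 0.316 and 0.808). The markers of plasmacytoid dendritic cells summed to 18.7 and 17.4 RPKM in naive cells and to 2.10 to 7.97 RPKM later, with 16.9 and 15.9 RPKM of the naive sums from Pacsin1. Siglech was at 0.416 RPKM in naive cells and at a mean of at most 0.0515 RPKM in every later stage, while Ccr9 was higher in plasmablasts (4.15 RPKM) than in naive cells (0.265 RPKM).

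By transition, 4 of the 6 genes passed glmTreat between naive cells and 3 h, where 45.3% of all tested genes were called. Id1, Id2 and Tcf12 were the 3 that rose, against 21% of all genes, and Id3 fell, as did 24.3%. From 3 h to 10 h 3 of 6 were called and all fell (Id1, Id2 and Tcf12), while 30.8% of all genes were called, of which 17.4% rose and 13.4% fell out of all tested. From 10 h to 33 h Id1 alone was called, and fell, against 14.5% of all genes, with 10.1% up and 4.45% down. From 33 h to expanded B cells glmTreat called 0 of 6 against 10.6% of all genes, with 6.94% up and 3.66% down. At plasmablast differentiation 3 of 6 were called and fell (Id2, Id3 and Tcf3), with 26.1% of all genes called, 13.9% up and 12.2% down.

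For a change of any size, the F-test called 5 of the 6 genes from naive cells to 3 h, where it called 71% of all tested genes. It called 5 of 6 from 3 h to 10 h (62.3% of all genes), 5 from 10 h to 33 h (45.5%), 3 from 33 h to expanded B cells (39.6%) and 5 at the last transition (56.9%). The 3 members between 33 h and expanded B cells were Id3, Tcf3 and Tcf4, and DESeq2's Wald test also called 3 there.

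Over the 6 stages, the ratio of the highest to the lowest mean was 161 for Id1, 81.0 for Id3 and 16.8 for Id2. For the E protein genes it was 2.66 for Tcf12, 1.72 for Tcf3 and 1.70 for Tcf4. The range of each Id gene was thus wider than that of each E protein gene, with few counts behind the lowest mean of Id1.

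**Figure D2:**
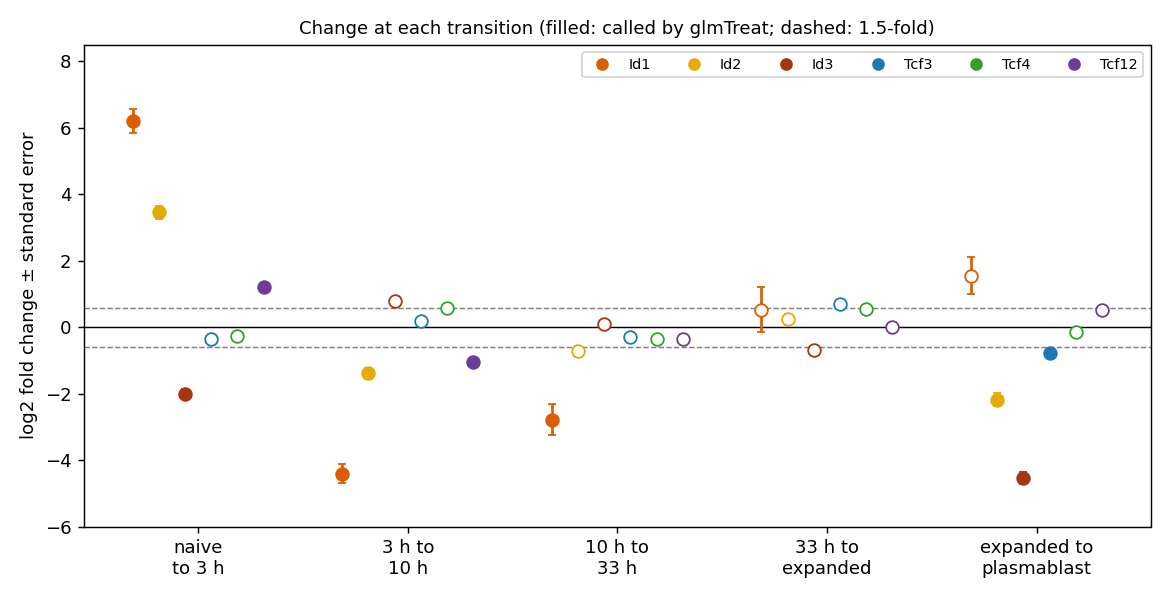
Log2 fold change of each gene (y axis, bars for the standard error) at the 5 consecutive transitions (x axis), with filled points for genes called by glmTreat and dashed lines at a 1.5-fold change. The Id genes reach 6.21 (Id1 at 3 h) and -4.53 (Id3 in plasmablasts), whereas the E protein genes lie between -1.06 and 1.20.

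Per length of transcript, the sum of the 3 Id genes was close to the E protein sum in naive cells and a small part of it in plasmablasts. The ratio in naive cells, 0.949 as given below, was 0.202 from counts not scaled to gene length and 2.73 with Tcf3 left out. The Id sum was 134 and 149 RPKM in naive cells, 84.1 and 75.7 RPKM at 3 h, 72.0 and 72.8 RPKM at 10 h and 73.8 and 69.5 RPKM at 33 h. It was 48.1 and 49.5 RPKM in expanded B cells and 3.75 and 4.26 RPKM in plasmablasts. The E protein sum stayed between 117 and 174 RPKM in all 12 libraries, with its lowest values at 33 h (118 and 117 RPKM) and its highest in expanded B cells (174 and 173 RPKM).

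The ratio of the Id to the E protein sum was 0.882 and 1.02 in the naive libraries, 0.501 and 0.502 at 3 h, 0.503 and 0.480 at 10 h and 0.626 and 0.593 at 33 h. Expanded B cells had 0.277 and 0.286, and plasmablasts 0.0286 and 0.0323. Scaling between libraries cancels in this ratio. The naive libraries were above all others, the 3 h and 10 h ranges overlapped, and the plasmablast libraries were below all others. The mean ratio fell from 0.949 ± 0.095 (SD, n = 2) in naive cells to 0.0304 ± 0.0026 in plasmablasts, a 31.2-fold difference, of which 9.25-fold lay between expanded B cells and plasmablasts. No test was made of the ratio, since it is a score over the genes described, and a permutation of 2 against 2 libraries cannot go below a two-sided p of 0.333.

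The position of naive cells at the top of this order depended on Id3. With Id3 left out the mean ratio was 0.0209 in naive cells and 0.284 at 3 h, so that 3 h was the highest stage, and the stages after it had 0.0882, 0.0651, 0.0517 and 0.0174. With geometric means in place of sums, which give each gene equal weight, the ratio was also highest at 3 h, at 0.528 against 0.120 in naive cells. Plasmablasts remained the lowest stage with each of the 6 genes left out in turn and with geometric means.

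**Figure D3:**
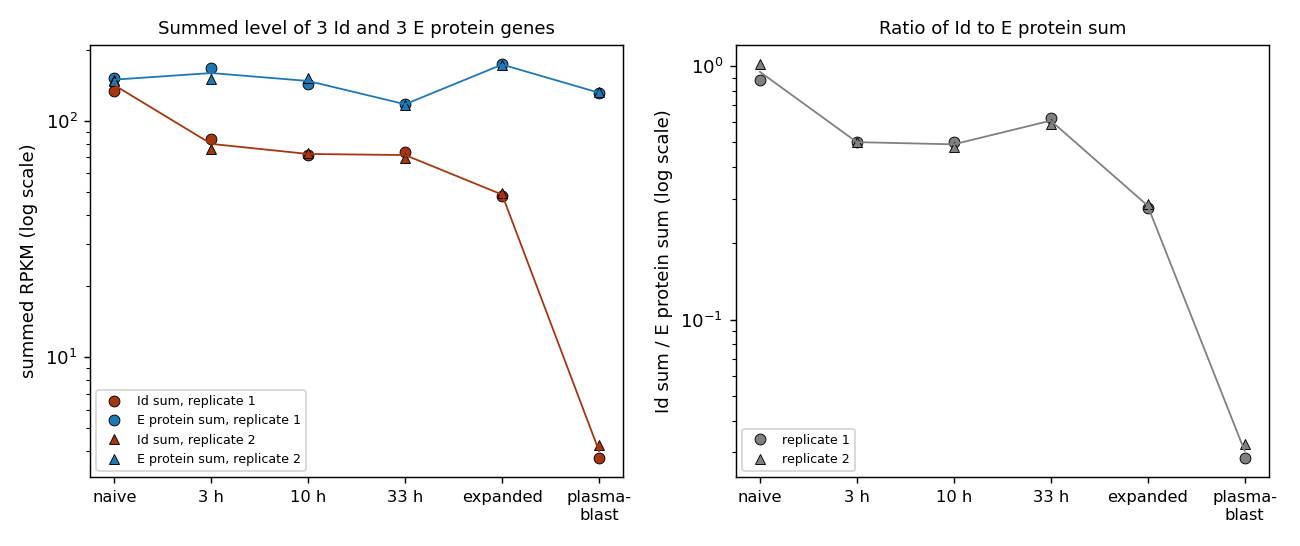
Left, summed RPKM of the 3 Id genes and of the 3 E protein genes (log scale) in each library, with lines through the stage means. Right, their ratio (log scale), which falls from 0.949 in naive cells to 0.0304 in plasmablasts while the E protein sum stays between 117 and 174 RPKM.

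The make-up of the Id sum differed most from the other stages at 3 h and in plasmablasts. Id3 made 97.6% and 98.0% of it in the naive libraries. At 3 h Id3 made 47.4% and 39.2%, Id2 34.9% and 47.0% and Id1 17.7% and 13.8%, and the order of Id2 and Id3 differed between the replicates. Id3 was again the main part at 10 h (82.1% ± 0.8, SD, n = 2), at 33 h (89.3% ± 3.2) and in expanded B cells (81.6% ± 0.2). In plasmablasts, at a sum of about 4.00 RPKM, Id2 made 48.2% ± 2.8 and Id3 42.8% ± 1.5.

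The make-up of the E protein sum varied less. Tcf3 made 65.3% ± 1.8 of it in naive cells, 48.3% ± 1.1 at 3 h, 66.4% ± 1.4 in the expanded cells and 50.8% ± 0.02 in plasmablasts. Tcf12 made 38.7% ± 5.1 at 3 h and at most 25.3% ± 0.02 at any other stage. Tcf4 ranged from 13.0% ± 4.0 at 3 h to 23.9% in plasmablasts.

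**Figure D4:**
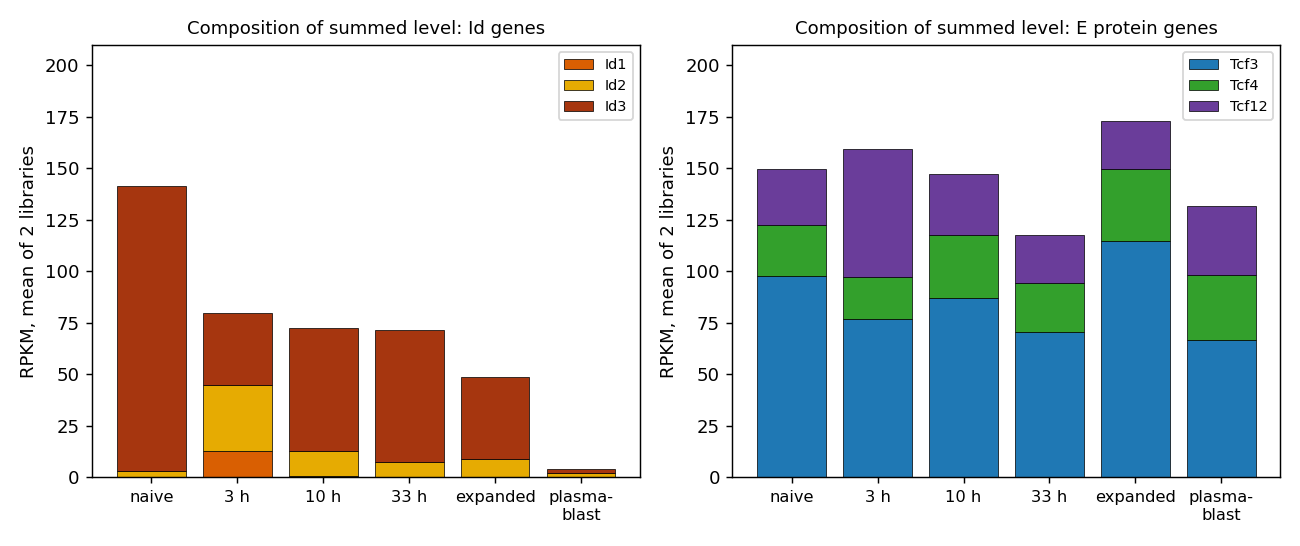
Stage means of RPKM (mean of 2 libraries) stacked by gene, for the Id genes on the left and the E protein genes on the right. Id3 fills 97.8% of the Id bar in naive cells and 43.3% at 3 h, and Tcf12 makes 38.7% of the E protein bar at 3 h.

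Other helix-loop-helix proteins that dimerise with these factors or repress at similar sites were described from fixed lists. Id4, the remaining Id gene, had 0 counts in all 12 libraries. Of 10 further inhibitors and repressors (Id4 included), 7 were tested, and 2 rose and 3 fell at the first transition, where 21% of all tested genes rose and 24.3% fell. Their median log2 fold change was 0.75 against -0.03 over all genes, although more of them were called down than up. Heyl, a Notch-regulated repressor, rose from 0.0560 to 2.77 RPKM at 3 h (log2 fold change 5.62 ± 0.32, glmTreat adjusted p = 1.19e-08) and fell to 0.191 RPKM at 10 h. At 33 h it had 5 and 2 counts, from 35 and 38 at 10 h, and it passed the filter on low counts only through 3 h and 10 h. Hes1, also a Notch target, fell from 35.5 to 4.92 RPKM at 3 h, and Hes6 rose from 4.06 to 11.2 RPKM between 3 h and 10 h. Bhlhe41, a repressor of the DEC family, rose from 13.0 to 114 RPKM between 33 h and expanded B cells (log2 fold change 3.13 ± 0.14, glmTreat adjusted p = 3.95e-08). Its relative Bhlhe40 rose from 20.3 to 233 RPKM at 3 h and fell to 43.2 RPKM at 10 h. Between expanded B cells and plasmablasts Bhlhe40 fell from 17.0 to 5.68 RPKM. Hey1 rose from 1 and 2 counts to 14 and 13 at the same transition, and it passed the filter on low counts only through these plasmablast libraries.

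Of 24 class II partners, the tissue-restricted proteins that pair with E proteins, 20 had under 10 counts in every library and 4 were tested. Bhlha15, which encodes the secretory cell factor Mist1, rose at each of the last 3 transitions. Its level was 0.161 and 0.159 RPKM at 10 h, 2.69 and 6.69 RPKM at 33 h, 22.9 and 27.9 RPKM in expanded B cells and 118 and 117 RPKM in plasmablasts. The libraries of these 4 stages did not overlap, and glmTreat called each of these steps, with log2 fold changes of 4.84 ± 0.46, 2.46 ± 0.31 and 2.21 ± 0.30 (adjusted p = 4.27e-05, 0.000877 and 0.000561). In plasmablasts its mean of 118 RPKM compared with 66.8 RPKM for Tcf3 and 4.00 RPKM for the 3 Id genes together. Lyl1, a partner known from haematopoietic progenitors, was at 105 and 98.5 RPKM in naive cells and at 13.2 and 15.2 RPKM at 3 h. Neurod4 fell from 45 and 38 counts in the naive libraries to 2 and 0 counts at 3 h, and it passed the filter on low counts only through the naive libraries.

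Of 13 cofactors of E proteins, 11 were tested, and 0 rose and 4 fell in the first 3 h, against 21% and 24.3% of all tested genes. Cbfa2t3, an ETO family corepressor, fell from 14.2 to 2.61 RPKM (log2 fold change -2.43 ± 0.17, glmTreat adjusted p = 2.24e-07) and rose to 6.89 RPKM at 10 h. Ssbp3, a partner of the Ldb1 bridging protein, rose from 8.13 to 29.1 RPKM between 10 h and 33 h (1.84 ± 0.12, adjusted p = 1.10e-06). Lmo4 fell from 33.0 to 18.8 RPKM over the same interval. Lmo2, which links E proteins to other factors, fell from 142 to 73.9 RPKM between 3 h and 10 h, rose to 157 RPKM at 33 h (1.09 ± 0.13, adjusted p = 0.00236) and fell from 96.7 to 27.8 RPKM between expanded B cells and plasmablasts (-1.80 ± 0.14, adjusted p = 2.45e-06), where 1 cofactor rose and 2 fell and the median was -0.38 against -0.05 over all genes. Of all tested genes, 13.9% rose and 12.2% fell at this last step. With libraries scaled by size alone, 4 cofactors fell there, beside 2953 of the 12750 tested genes. The coactivator gene Kat2b rose there, from 2.40 to 6.80 RPKM.

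All 9 regulators of the stability or activity of E and Id proteins were tested. In the first 3 h 3 rose and 0 fell, against 21% and 24.3% of all tested genes. With libraries scaled by size alone 3 rose and 1 fell, beside 2091 and 3716 of the 12750 tested genes. Wdr48, whose product activates the deubiquitinase USP1 that stabilises Id proteins, rose from 17.4 to 39.7 RPKM (log2 fold change 1.19 ± 0.09, glmTreat adjusted p = 6.89e-06) and fell back to 15.7 RPKM at 10 h. Skp2, a ubiquitin ligase subunit, rose from 0.387 to 1.08 RPKM between 3 h and 10 h and to 2.75 RPKM at 33 h. Asb2, a further ubiquitin ligase subunit, fell from 1.82 to 0.676 RPKM between 10 h and 33 h, rose from 0.676 to 5.04 RPKM between 33 h and expanded B cells and fell to 0.581 RPKM in plasmablasts.

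Of the 12 genes for regulators upstream of Id genes, all tested, 2 rose and 0 fell in the first 3 h, 0 rose and 5 fell from 3 h to 10 h, and 3 rose and 1 fell at the last transition. Over all tested genes, 21% rose and 24.3% fell at the first of these transitions, 17.4% and 13.4% at the second and 13.9% and 12.2% at the last. Their median log2 fold change from 3 h to 10 h was -1.12 against 0.02 over all genes. Scaled by library size alone, 1 rose and 1 fell in the first 3 h and 1 rose at the last transition. Of the 12750 tested genes, 2091 then rose and 3716 fell in the first 3 h, and 1181 rose at the last transition. Tgfbr1, a TGF-β receptor, rose from 6.76 to 19.3 RPKM at 3 h (1.51 ± 0.13, glmTreat adjusted p = 4.09e-06), was at 6.30 RPKM at 10 h and fell to 2.81 RPKM at 33 h. Egr2, an immediate early factor known to induce Id genes in lymphocytes, fell from 4.57 to 0.663 RPKM between 3 h and 10 h (-2.77 ± 0.45, adjusted p = 0.00116). In plasmablasts Egr2 was at 8.14 and 21.0 RPKM against 2.21 and 3.79 RPKM in expanded B cells (2.29 ± 0.39, adjusted p = 0.00227). Zeb2 fell from 4.64 to 0.339 RPKM at this last transition (-3.78 ± 0.21, adjusted p = 4.12e-08). Smad1 fell from 0.783 to 0.183 RPKM between 33 h and expanded B cells, where Bmpr1a, a BMP receptor, went from 7 and 9 counts to 82 and 75 counts. Bmpr1a passed the filter on low counts only through expanded B cells and plasmablasts.

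Of 24 genes known as E protein targets in the B lineage, 20 were tested, and they moved in both directions at every transition. In order of the transitions, 5, 3, 3, 6 and 4 rose and 4, 7, 2, 2 and 7 fell. Over all tested genes 21%, 17.4%, 10.1%, 6.94% and 13.9% rose and 24.3%, 13.4%, 4.45%, 3.66% and 12.2% fell, so that the counts in the first 3 h were near those shares. Scaled by library size alone, 5 rose from 3 h to 10 h and 2 at the last transition, beside 3432 and 1181 of the 12750 tested genes. With TMM the median log2 fold changes of the targets were -0.23, -0.76, -0.26, 0.26 and -0.62, against -0.03 to 0.02 over all genes for the first 4 and -0.05 for the last. Irf4, a regulator of plasma cell fate, rose from 53.2 to 614 RPKM at 3 h (3.53 ± 0.18, glmTreat adjusted p = 2.10e-08) and fell to 132 RPKM at 10 h. Ccnd3 rose from 40.8 to 178 RPKM between 10 h and 33 h, while Cdkn1a fell from 26.6 to 4.85 RPKM. Fcer2a fell from 102 to 20.6 RPKM between 33 h and expanded B cells, Cd79a from 2442 to 1043 RPKM between naive cells and 3 h, and Gfi1 rose from 1.29 to 8.62 RPKM in plasmablasts. Rag1 had 0 counts in both 33 h libraries and 5 and 22 in expanded B cells.

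The genes whose profile over the 12 libraries was most like each member were taken by Pearson's r of log2 CPM among 8262 genes. The 12 points are 6 stages in pairs, so that r mostly reflects stage means and is given as a description. For Id3 they were Herc3 (r = 0.996), Cyb561a3 and Cyrib, and Cyb561a3 fell from 179 RPKM in naive cells to 5.34 RPKM in plasmablasts. For Id2 they included Nob1 (0.982) and Camsap1, and for Id1 Snw1 (0.985), Pigm and Rbm18. For Tcf12 they were Usp19 (0.983), Rbm18 and Socs6, so Rbm18 stood on the lists of both Id1 and Tcf12. Between those 2 members r was 0.970, while that of Id1 with Id2 was 0.663 and that of Id3 with Id2 0.388. Outside 3 h Id1 had at most 25 counts in any library. For Tcf3 the nearest were Cplx2 (0.930), S100a11 and Chsy1, and for Tcf4 Gm20762 (0.922), Hdhd5 and Itgal. Among the E protein genes r was 0.340 for Tcf3 with Tcf4, -0.345 for Tcf3 with Tcf12 and -0.587 for Tcf4 with Tcf12.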

How the data were processed

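The authors prepared polyadenylated RNA libraries (TruSeq) and sequenced them as read pairs on an Illumina NextSeq, with CASAVA 1.8.2 named in the submitters' processing notes. Alignment was with Rsubread to mm10, and featureCounts counted reads per Entrez gene. The deposited values are raw counts per gene, neither normalized nor filtered, with exon lengths, and the 12 single-sample files held the same counts.

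Of 27179 genes, 25275 were matched to a RefSeq gene table (GRCm38.p6) for symbols and positions. Mitochondrial, ribosomal RNA, X and Y, variable immunoglobulin and unmatched genes were removed, which left 23700, and filterByExpr kept 12750. R 4.3.3 with edgeR 4.0.16 was used, with TMM, robust quasi-likelihood fits to all 12 libraries in a one-way layout, glmTreat against 1.5-fold and the F-test, adjusted over all tested genes at 0.05. Standard errors are the log2 fold change divided by the root of the F statistic. Strandedness of the counting is not given in the sources used here, and exons of no other gene in GENCODE M21 overlap those of the 6 genes.

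The members and gene lists were chosen with earlier results of these data known. Named beyond the 6 genes are Id4, Bhlha15, the called gene of each list with the largest rise and fall at each transition, the 3 genes most like each member among those whose average log2 CPM was 3 or more (prior count 2), and markers. Lyl1 was added after its values were seen, and some genes that this rule names are not reported here. Counts were also simulated for expanded B cells against plasmablasts with 12553 genes. Of these, 50 were changed at each fold and the rest left unchanged, whereas 3329 genes were called in the data. In the simulation glmTreat found 36% of genes changed 2-fold, 88% at 3-fold, 98% at 4-fold and 98% at 8-fold. The adjustment for multiple tests depends on how many genes change, so these are not detection rates for the data. The alternatives, DESeq2 1.42.0 among them, are under the dependence on processing. Hi-C libraries of the study were not used here.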

Additional observations from a re-analysis of the deposited data

How the results depend on the processing

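The 6 genes at 5 transitions gave 30 log2 fold changes, recomputed 683 times in all under other scalings, filters, tests, dispersion settings and with each library left out. Of these 641 kept direction and call, 4 lost the call, 31 gained it and 7 changed sign. The lost calls were those of Tcf3 at the last transition and Tcf12 from 3 h to 10 h given in the report. Outside the F-test and DESeq2's Wald test, calls were gained by Id3 from 3 h to 10 h (library size alone, no filter, without 3 h replicate 1, up to a log2 fold change of 1.12), by Tcf4 from 3 h to 10 h (library size alone, without 3 h replicate 2, up to 0.91) and by Id2 from 10 h to 33 h (without 33 h replicate 2, -0.996). The cause was not tested. All sign changes were between 33 h and expanded B cells. Id2, at 0.23, became -0.025 without 33 h replicate 1 and ran up to 0.51 with a library left out. Tcf12, at 0.0043, became -0.0042 with library size alone, -0.033 with no filter, -0.011 with the removed gene classes kept, -0.021 without 3 h replicate 2, -0.050 without 33 h replicate 2 and -0.039 without expanded replicate 2, and ran up to 0.053 with a library left out.

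The F-test and the Wald test, which ask for a change of any size, each called 5 members from 3 h to 10 h, 5 from 10 h to 33 h, 3 from 33 h to expanded B cells and 5 at the last transition. From 10 h to 33 h the count was 0 with at least 10 counts required in every library, since Id1 is then not tested, and 1 to 2 with a library left out (2 without 33 h replicate 2). Over all genes, glmTreat called 5774, 3932, 1855, 1352 and 3329 at the 5 transitions, the F-test 9052, 7942, 5798, 5053 and 7256, and the Wald test 8832, 7824, 5570, 4852 and 6988. From 33 h to expanded B cells glmTreat called 712 with at least 10 counts in every library and 855 without 33 h replicate 1. With library size alone the median log2 fold change of all genes moved to -0.24 from naive cells to 3 h, 0.35 from 3 h to 10 h and -0.38 at the last transition. The genes that rose and fell were then 2091 and 3716 (2674 and 3100 with TMM), 3432 and 1004 (2221 and 1711), and 1181 and 2953 (1776 and 1553). Of 60 counts of list genes that rose or fell, 12 moved by over 1.5 times under library size alone and 2 under DESeq2's size factors.

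The Id to E protein ratio, in the order naive, 3 h, 10 h, 33 h, expanded and plasmablast, was 0.202, 0.116, 0.105, 0.128, 0.0621 and 0.00683 from counts scaled to depth but not to gene length. With geometric means it was 0.120, 0.528, 0.186, 0.130 and 0.0942 for the first 5. It was 0.422 at 3 h and 0.0277 in plasmablasts without Id1. Without Id2 it was 0.296, 0.407, 0.545, 0.231 and 0.0157 from 3 h on. Without Id3 it was 0.0209, 0.284, 0.0882, 0.0651, 0.0517 and 0.0174. Without Tcf3 it was 2.73, 0.969, 1.20, 1.52, 0.838 and 0.0619, without Tcf4 1.14, 0.577, 0.620, 0.763, 0.353 and 0.0400, and without Tcf12 1.16, 0.821, 0.616, 0.760, 0.326 and 0.0407.

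A term for the replicate number (replicate block) left the members called at 4, 3, 1, 0 and 3, changed none of the 30 calls and moved no log2 fold change by over 0.0179. Deviations of same-numbered libraries correlated at -0.14 to 0.084 over the 15 pairs of stages. Such correlations over all genes cannot show whether same-numbered libraries shared a culture.

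Depth limits Id1 outside 3 h and 10 h, with 2 to 9 counts per library. With 2 libraries a stage, p-values set each difference against a spread estimated from all 12 libraries. The 3 h replicates were the furthest apart. The SD over tested genes of their log2 ratio was 0.529, against 0.303 to 0.385 at the other stages. The shared spread can therefore understate that of comparisons with 3 h. In the simulation, where far fewer genes changed than in the data, glmTreat found 36% of the 2-fold changes. Counts cover RNA of a gene and not of its splice forms.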
